A study of Homo sapiens with 6 samples.

Results

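The salt-inducible kinases SIK1, SIK2 and SIK3 and the CREB-regulated transcription coactivators CRTC1, CRTC2 and CRTC3 were followed in NCI-H1299 cells with and without norepinephrine (NE). NCI-H1299 is a line grown from a non-small cell lung cancer. The members were chosen by gene symbol, 7 names in all because SIK1B, the near-identical copy of SIK1, was looked up as well. Values were available for 5 of them among 26025 genes, namely SIK2, SIK3, CRTC1, CRTC2 and CRTC3. SIK1 and SIK1B were not analysed here. RNA was sequenced from 3 Ctrl libraries and 3 libraries of cells given 10 µM NE for 48 h. The cells of both groups had first been kept 8 to 12 h in DMEM and were then held in RPMI-1640 with 2% serum. The 8 to 12 h step before treatment was taken as serum-free for all libraries, and the study describes it as starvation. The sample labels name the vehicle of the Ctrl cells as DMSO in one place and as PBS in another. The labels do not say whether replicates were separate cultures, so that each p-value measures only the spread between these libraries.

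Salt-inducible kinases belong to the AMPK-related kinases, and they are switched on by the tumor suppressor kinase LKB1. They phosphorylate the CRTCs, which then stay in the cytoplasm bound to 14-3-3 proteins. When an adrenergic receptor raises cAMP, protein kinase A (PKA) phosphorylates the SIKs and restrains them. Dephosphorylated CRTCs then enter the nucleus and act with CREB on genes that carry cAMP response elements. These steps act on the proteins, whereas the values below are levels of mRNA.

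Reads on genes ranged from 16852751 to 17979206 per library, and the members had between 332 and 1955 reads in each library. Counting alone then gives an SD of 5.49% for the lowest of these counts and 2.26% for the highest, without any error from amplification. Ctrl replicate 3 stood apart: 7305 genes had no read there, whereas replicates 1 and 2 had 4829 and 4833 such genes. Its log2 differences from the mean of Ctrl replicates 1 and 2 also declined with exon GC content (Spearman correlation of -0.51 over 14955 genes), and so did those of the NE libraries (-0.66 to -0.68). The part of this trend in the results was not tested beyond the fits given with each gene. These correlations share the same Ctrl baseline and are given as a description. Among markers, the epithelial keratin KRT8 had 5726 to 13541 reads, KRT18 7309 to 24051 and the mesenchymal VIM 49574 to 79854, while the lung lineage factor NKX2-1 had 0 to 4 reads, the endothelial marker CDH5 0 to 10 and the fibroblast marker LUM 0 to 2. PECAM1, also endothelial, had 17 to 37 reads and DCN, of fibroblasts, 0 to 19.

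Both measured SIK genes were higher in NE-treated cells, SIK3 by 1.50-fold and SIK2 by 1.31-fold, and none of the 3 CRTC genes passed the test. A gene passed the test at a Benjamini-Hochberg adjusted p under 0.05 from limma, fitted over 15013 genes. It was called changed if its log2 fold change was also at least 1 in size. Of the 5 members, 0 were called changed in either direction, where 7.47% of all tested genes were called higher and 6.55% lower. No member had a fold change of that size at any p, and edgeR and DESeq2 on the recovered reads also called 0. Without the fold criterion 50.1% of all tested genes passed. Then 2 of the 5 members were higher, against 24.6% of all tested genes, and 0 were lower, against 25.5%. At an unadjusted p under 0.05 there were 3 of the 5 members, both SIK genes and CRTC2, against 57.1% of all tested genes. In bulk RNA, a change in the number of cells that express a gene cannot be told apart from a change of its RNA per cell.

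SIK3 (ENSG00000160584) is a minus-strand gene of chromosome 11 (hg38), from 116843402 to 117098437. It encodes a kinase known from skeletal growth and from the control of sleep. Its normalized counts, which are gene counts divided by a size factor for each library, were 483, 514 and 446 in Ctrl and 785, 709.9 and 678 in NE-treated cells. Every NE library lay above every Ctrl library. The means were 481 ± 34.3 (SD, n = 3) and 724 ± 54.7 (SD, n = 3), and the log2 fold change was 0.59 (standard error 0.12, limma adjusted p = 0.00342). SIK3 was past the test in each alternative that was run, including each fit that left out a library, with log2 fold changes from 0.53 to 0.73.

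SIK2 (ENSG00000170145), a kinase known from adipose tissue, lies on the plus strand of the same chromosome, from 111602449 to 111730855, 5.11 Mb away from SIK3. It had 1249, 1173 and 1325 normalized counts in Ctrl and 1932, 1620.3 and 1398 in NE-treated cells. The groups did not overlap, although the lowest NE library, replicate 3, was close to the highest Ctrl library. The means were 1249 ± 76.0 (SD, n = 3) and 1650.1 ± 268 (SD, n = 3), with a log2 fold change of 0.39 (standard error 0.13, limma adjusted p = 0.0353). Every NE library lay above every Ctrl library in 2 members and below in 0, against 29.7% and 28.9% of all tested genes. SIK2 no longer passed without NE replicate 1, where its log2 fold change was 0.27 (limma adjusted p = 0.12), and it also failed without Ctrl replicate 1, Ctrl replicate 2 or NE replicate 2. SIK2 shares 150 of its 9740 exon bases with PPP2R1B, a phosphatase subunit gene on the other strand with 711 to 1233 reads, and the library kit does not mark strand.

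**Figure D1:**
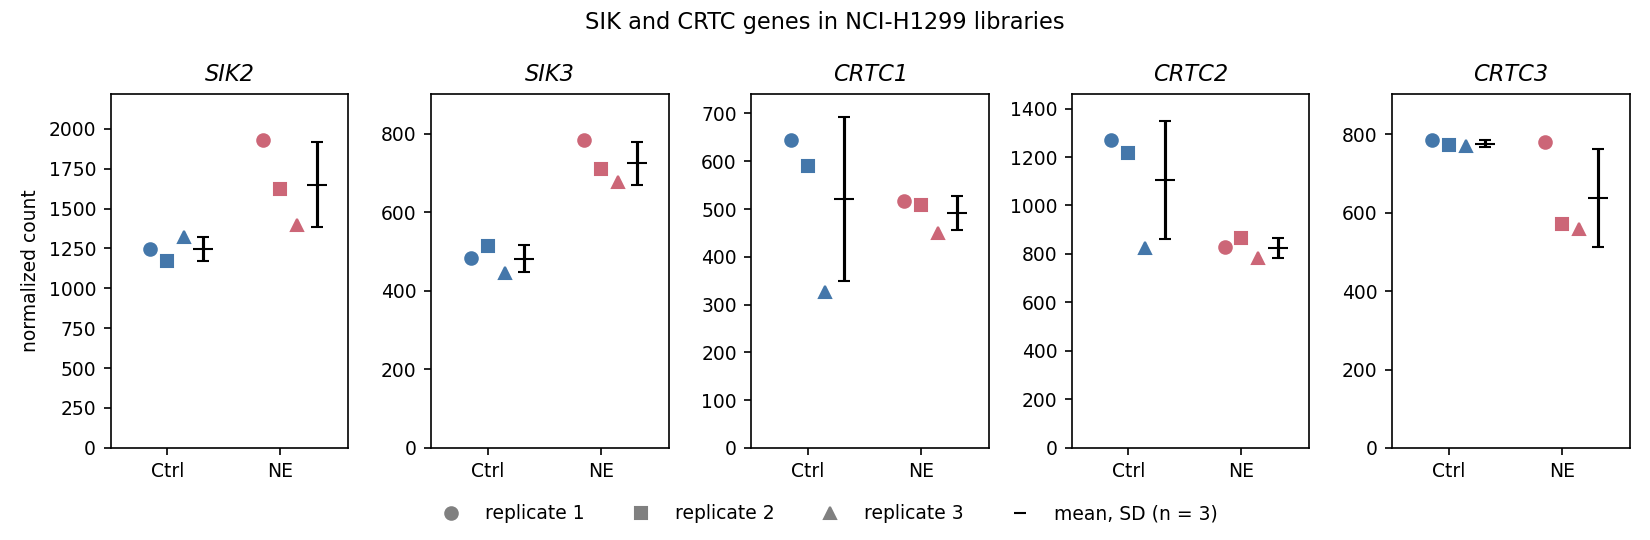
Normalized counts (vertical axis, from 0) of SIK2, SIK3, CRTC1, CRTC2 and CRTC3 in the 3 Ctrl and 3 NE libraries; symbols mark replicates, and the black bars give the mean and SD. The NE libraries of SIK2 and SIK3 lie above all Ctrl libraries, while for CRTC1 and CRTC2 Ctrl replicate 3 lies far below the other 2 Ctrl libraries.

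The 250 bases upstream of the start of SIK2 and SIK3, which were higher with and without the GC correction described below, are shown with those of CRTC3, which passed in neither fit. They are RefSeq promoters on GRCh38.p14, printed along the strand of each gene, with the half-site of the cAMP response element, TGACG or its reverse complement CGTCA, in capitals. The windows are chr11:111602199-111602448 on the plus strand for SIK2, chr11:117098429-117098678 on the minus strand for SIK3 and chr15:90529673-90529922 on the plus strand for CRTC3. The RefSeq start of SIK3 lies inside its GENCODE gene model.
SIK2: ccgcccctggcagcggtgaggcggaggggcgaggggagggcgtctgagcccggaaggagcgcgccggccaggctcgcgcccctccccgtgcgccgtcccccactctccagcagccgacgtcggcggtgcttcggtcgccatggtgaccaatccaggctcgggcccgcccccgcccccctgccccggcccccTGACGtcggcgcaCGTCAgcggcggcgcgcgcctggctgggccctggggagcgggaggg
SIK3: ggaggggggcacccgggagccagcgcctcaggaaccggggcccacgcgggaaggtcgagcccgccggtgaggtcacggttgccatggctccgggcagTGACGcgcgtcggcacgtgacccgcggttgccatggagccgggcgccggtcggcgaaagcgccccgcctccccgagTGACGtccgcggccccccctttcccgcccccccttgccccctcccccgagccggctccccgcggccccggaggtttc
CRTC3: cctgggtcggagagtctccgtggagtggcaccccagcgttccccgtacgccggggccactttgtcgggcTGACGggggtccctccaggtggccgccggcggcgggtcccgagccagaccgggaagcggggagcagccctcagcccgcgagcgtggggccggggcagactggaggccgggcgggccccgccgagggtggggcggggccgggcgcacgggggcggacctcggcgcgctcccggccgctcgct

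SIK2 holds the half-site on the plus strand 59 to 55 bases before its start and on the minus strand at 46 to 42 bases. SIK3 holds it at 153 to 149 and at 77 to 73 bases, and CRTC3 at 181 to 177 bases. The half-site on either strand was found in 21.2% of 35116 promoter windows of the same length. The longer form TGACGT, which contains the half-site, was present 2 times in SIK2 and 1 time in SIK3, and in 7.10% of all windows. CRTC3 and CRTC1 did not hold these 6 letters, and the CRTC1 window also lacked the half-site, although CRTC1 was higher after the GC correction. The window of SIK1, whose RNA was not analysed here, held 3 half-sites and 1 of the longer form. No window was read for CRTC2. The full palindrome TGACGTCA was in 1.65% of windows and in 0 of these 5. SIK3 also held the E-box CACGTG, the type of site that CLOCK and BMAL1 bind, 140 to 135 bases before its start, as did 6.34% of windows. These matches describe letters in the windows and are not measured binding.

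The CRTC genes encode the coactivators that the SIKs phosphorylate, and their groups overlapped in all 3 cases. CRTC2 (ENSG00000160741), the coactivator known from glucose production in the liver, lies on chromosome 1 of hg38 from 153947669 to 153958615. It had 1271, 1215 and 825 normalized counts in Ctrl and 830.04, 864 and 781 in NE-treated cells. Ctrl replicate 3 was thus at the level of the NE libraries, and the other 2 Ctrl libraries were above them. Its log2 fold change was -0.40 (standard error 0.17, limma adjusted p = 0.0735). DESeq2 on the recovered reads gave -0.41 with an adjusted p of 0.0427. Without Ctrl replicate 3, CRTC2 was lower by limma, with a log2 fold change of -0.59 and an adjusted p of 7.75e-05.

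CRTC1 (ENSG00000105662), known from neurons and from the fusion with MAML2 in salivary gland tumors, lies on chromosome 19 from 18683678 to 18782333. Its normalized counts were 645, 591 and 325 in Ctrl and 516, 508 and 450.5 in NE-treated cells. The NE libraries fell between Ctrl replicate 3 and the other 2 Ctrl libraries. The log2 fold change was -0.02 with a 95% confidence interval from -0.55 to 0.50 (limma adjusted p = 0.941), an interval that held changes in either direction. It turned to 0.11 when libraries were scaled to their total reads, a scaling that also moved the median of all genes to 0.14. Without Ctrl replicate 3, CRTC1 was lower, at -0.33 (limma adjusted p = 0.0170).

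CRTC3 (ENSG00000140577), the coactivator known from adipose tissue, lies on chromosome 15 from 90529923 to 90645345. It had 786, 773 and 771 normalized counts in Ctrl and 781, 572 and 557 in NE-treated cells. The 3 Ctrl libraries were nearly equal, and NE replicate 1 stayed at their level while the other 2 NE libraries were below. The log2 fold change was -0.30 with a 95% confidence interval from -0.63 to 0.02 (limma adjusted p = 0.110). Without NE replicate 1 it was -0.46 (limma adjusted p = 0.0191), and this was the only fit in which CRTC3 passed. CRTC3 shares 103 exon bases with the antisense gene CRTC3-AS1, which had 0 to 2 reads.

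The GC content of the merged exons was 47.6% in SIK3, 49.1% in SIK2 and 49.3% in CRTC3, near the median of 47.5% of the tested genes. It was 58.3% in CRTC2 and 61.9% in CRTC1, above the upper quartile of 55.6%. Across all tested genes the log2 fold change declined with GC content, as the plot of fold change against GC content shows. With the GC trend of each library taken out, the log2 fold changes of SIK3 and SIK2 were 0.58 and 0.49 (limma adjusted p = 0.00299 and 0.0175). That of CRTC1 turned to 0.61 (limma adjusted p = 0.0154), with corrected counts of 466, 442 and 311 in Ctrl and 664, 617 and 556 in NE-treated cells. CRTC2 turned to 0.16 (limma adjusted p = 0.288), and CRTC3 was at -0.19 (limma adjusted p = 0.318). After the correction 3 of the 5 members were higher, against 14.6% of all tested genes, and 0 lower, against 17.7%.

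**Figure D2:**
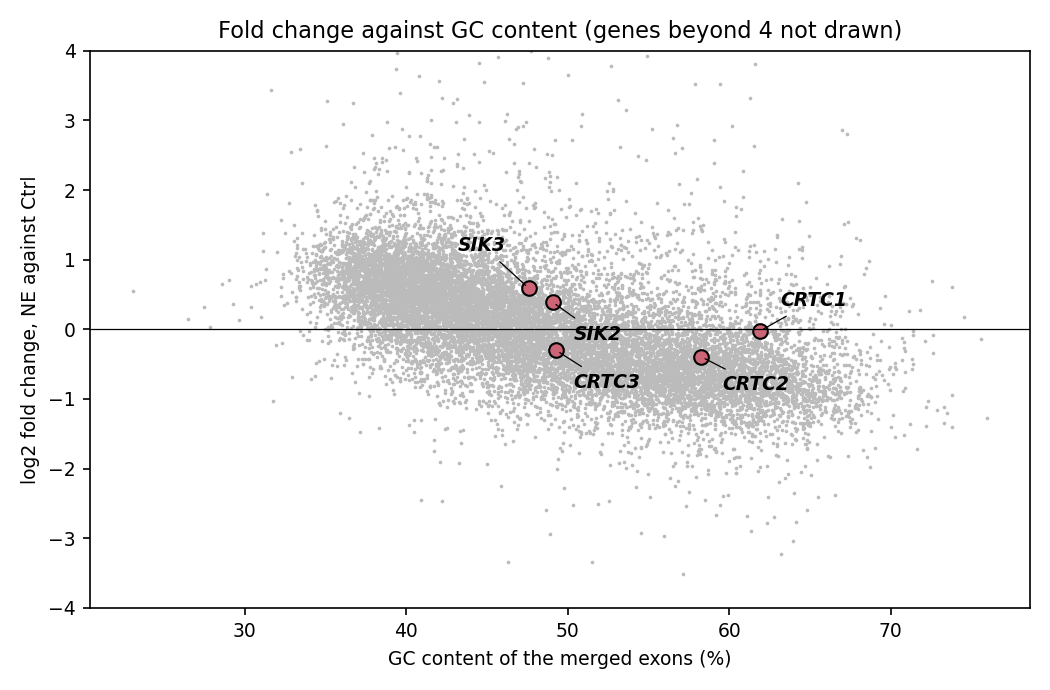
Log2 fold change of NE against Ctrl (vertical axis) against the GC content of the merged exons in percent (horizontal axis) for all tested genes (grey) and the 5 members (red). SIK2, SIK3 and CRTC3 lie near 48% GC with SIK2 and SIK3 above 0, while CRTC2 at 58.3% and CRTC1 at 61.9% lie where most genes are below 0.

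Without Ctrl replicate 3, and with no correction, 2 members were higher, both SIK genes, and 2 lower, CRTC1 and CRTC2, where 31.9% and 32.5% of all tested genes were higher and lower. With both the correction and Ctrl replicate 3 left out, SIK2, SIK3 and CRTC1 were higher, at 0.55, 0.53 and 0.43 (limma adjusted p = 0.0036, 0.00142 and 0.0073), against 19.5% of all tested genes. In that fit 0 members were lower, against 22.9% of all tested genes, and CRTC2 was at 0.06. The direction for CRTC2 therefore differed with the treatment of GC content. So did that of CRTC1, which also turned in fits with no GC correction. CRTC1 was at 0.16 and 0.10 without Ctrl replicate 1 or 2 and at 0.04 without NE replicate 3. With scaling to total reads it was at 0.11. The GC trend differed between the groups, and an effect of NE on GC-rich genes cannot be told apart from a difference between the libraries.

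**Figure D3:**
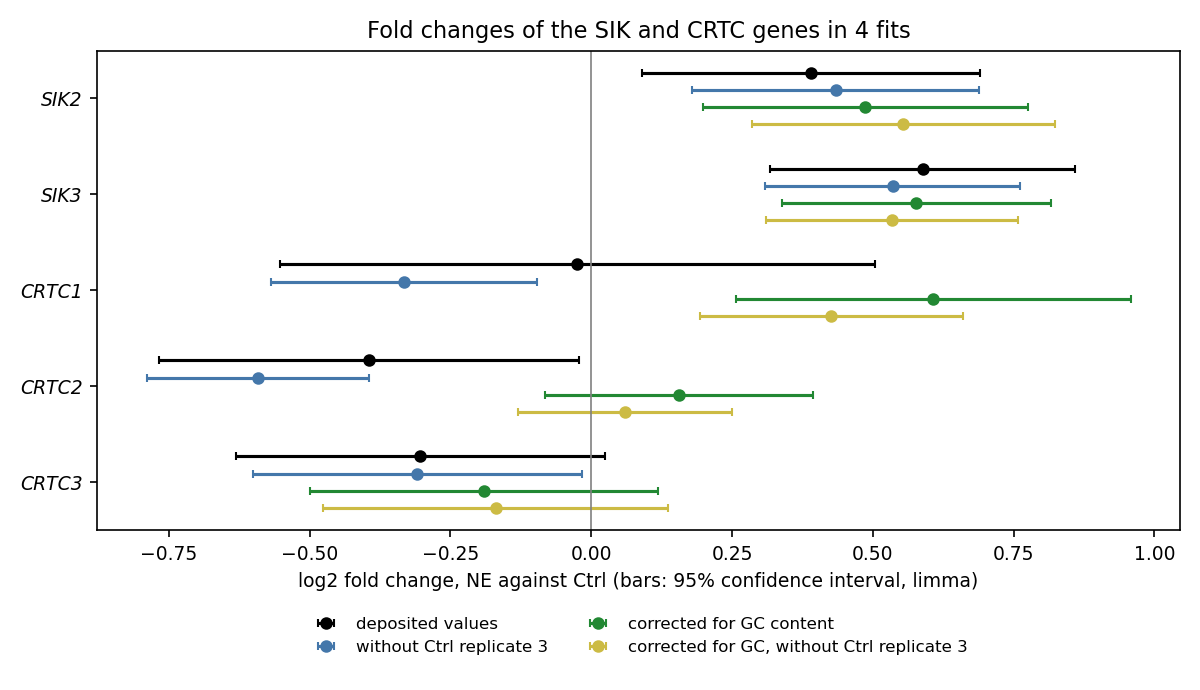
Log2 fold change of NE against Ctrl for each member (points) with 95% confidence intervals from limma (bars), for the deposited values, without Ctrl replicate 3, after correction for GC content, and with both. SIK2 and SIK3 stay above 0 in all 4 fits, CRTC1 moves from -0.33 to 0.61, CRTC2 from -0.59 to 0.16, and CRTC3 stays below 0.

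Levels were compared between genes as reads per kilobase of exon, scaled to the reads on genes (FPKM). CRTC2 was the most abundant member, with 17.0 ± 3.47 FPKM in Ctrl and 13.98 ± 0.639 in NE-treated cells (SD, n = 3), and it was above 77.6% of the tested genes or more in every library. SIK2 followed with 7.13 ± 0.561 in Ctrl and 10.3 ± 1.23 in NE-treated cells (SD, n = 3). The 2 ranges of CRTC2 and SIK2 did not overlap in either group. In Ctrl libraries, CRTC1 at 2.65 to 5.09 FPKM and CRTC3 at 3.92 to 4.05 could not be ordered, and SIK3 was lowest at 2.32 to 2.58. In NE libraries, CRTC1 at 4.11 to 4.46, SIK3 at 3.95 to 4.20 and CRTC3 at 3.24 to 4.22 overlapped as ranges. Within each NE library SIK3 was below CRTC1, and it was below CRTC3 in NE replicate 1 and above it in the other 2. The exon lengths behind FPKM count every annotated exon, whether or not these cells use it.

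**Figure D4:**
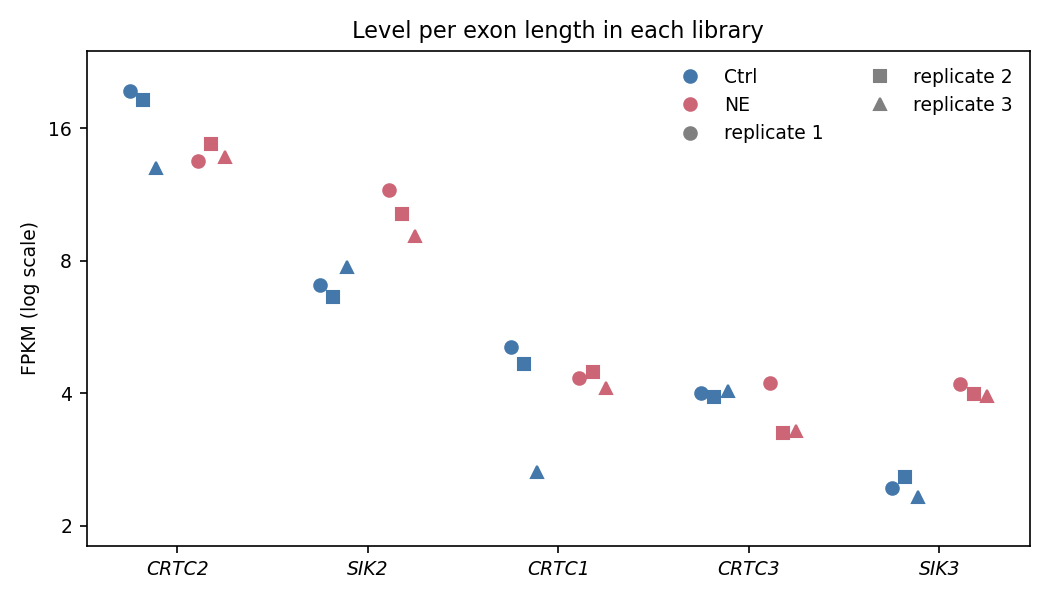
Level per exon length in FPKM (vertical axis, log scale) of each member in each library, blue for Ctrl and red for NE, with a symbol for each replicate. CRTC2 is above 13 FPKM in all libraries, SIK2 lies between 6.61 and 11.6, and SIK3 is lowest in the Ctrl libraries and lies close to CRTC1 and CRTC3 in the NE libraries.

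The summed FPKM of SIK2 and SIK3 was 9.57 ± 0.431 in Ctrl and 14.3 ± 1.36 in NE-treated cells (SD, n = 3), of which SIK2 made up 74.4% ± 2.52 and 71.7% ± 1.81. Scaling to total reads, as in FPKM, moved the median log2 fold change of all genes to 0.14. It put SIK2 and SIK3 at 0.53 and 0.73, against 0.39 and 0.59 with the size factors. The summed FPKM of the 3 CRTC genes was 28.5, 27.1 and 19.7 in Ctrl and 22.0, 22.4 and 21.2 in NE-treated cells. CRTC2 made up 67.5% ± 1.29 of that sum in Ctrl and 64.0% ± 2.42 in NE-treated cells (SD, n = 3). Ratios within a library do not depend on the scaling between libraries, and 4 were compared. They still carry the GC trend, as CRTC1 and CRTC2 hold more GC than CRTC3, and were not computed after the GC correction. That correction put the log2 fold changes of CRTC1, CRTC2 and CRTC3 at 0.61, 0.16 and -0.19. The log2 ratio of CRTC1 to CRTC2 was -0.98, -1.04 and -1.34 in Ctrl and -0.69, -0.77 and -0.79 in NE-treated cells, without overlap. Its difference was 0.37 (exact permutation test, two-sided, p = 0.1, adjusted p = 0.4 over the 4 ratios), and 0.1 is the smallest p that 3 against 3 libraries allow. The log2 ratio of SIK2 to SIK3 differed by -0.20 (exact permutation test, two-sided, p = 0.3). The ratios of CRTC1 and of CRTC2 to CRTC3 differed by 0.28 and -0.09 (exact permutation tests, p = 0.6 and 0.5).

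Among the genes around the SIKs and CRTCs, each count below is to be read against the 24.6% of all tested genes that were higher and the 25.5% that were lower, or 14.6% and 17.7% after the GC correction. Upstream of the SIKs, 1 of the 5 genes of the LKB1 complex was lower, a share near that of all genes, and 0 were higher. The median log2 fold change of the complex was 0.38, against 0.01 over all tested genes. After the GC correction this median was -0.11, against -0.01 over all tested genes, and 0 genes of the complex passed in either direction. The gene that fell was STK11, which encodes LKB1. It had 2485, 2355 and 1549 normalized counts in Ctrl and 1138, 1149 and 1105 in NE-treated cells, which was -0.88 on the log2 scale (limma adjusted p = 0.00257). All NE libraries were below all Ctrl libraries, and Ctrl replicate 3 was the lowest of the Ctrl libraries. STK11 has a GC content of 65.9%, and after the correction its log2 fold change was -0.21 (limma adjusted p = 0.107). STRADA, the pseudokinase partner of LKB1, was at 0.55 (limma adjusted p = 0.0973).

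Of the 6 PKA subunit genes, 3 were higher and 1 lower, with a median of 0.33, and after correction for GC content 0 passed in either direction. The lowest adjusted p were those of the regulatory subunits PRKAR1A and PRKAR1B, at 0.64 and -0.96 on the log2 scale (limma adjusted p = 0.00199 and 0.00215). Among the 11 other AMPK-related kinases that LKB1 activates, 3 were higher, a share near that of all genes. None was lower, and the median was 0.11. After the GC correction 3 were higher and 1 lower, and the higher ones were then SNRK, NUAK2 and MARK4. SNRK, the sucrose non-fermenting related kinase, had 214, 269.6 and 334 normalized counts in Ctrl and 1429, 1246 and 1332 in NE-treated cells. This rise was 2.31 on the log2 scale (standard error 0.17, limma adjusted p = 3.57e-05), and with the GC trend taken out it was 1.99 (limma adjusted p = 6.82e-06). The 95% confidence interval of SNRK started at 1.94, above those of SIK2 and SIK3, which ended at 0.69 and 0.86. PRKAA2, a catalytic subunit of AMPK, had a log2 fold change of 1.03 (limma adjusted p = 0.0111) and of 0.32 after the GC correction (limma adjusted p = 0.184).

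Of the 7 genes for 14-3-3 proteins, which bind phosphorylated CRTCs, 2 were lower, a share near that of all genes. None was higher, and the median was -0.05. SFN was the rarest of the 7, with 15.7, 32.1 and 12.7 normalized counts in Ctrl and 3.95, 0 and 4.57 in NE-treated cells (limma adjusted p = 0.0193), so its fall rests on few reads. The other gene that fell, YWHAH, was at -0.51 (limma adjusted p = 0.00297). Neither passed after the GC correction (limma adjusted p = 0.0715 for SFN and 0.136 for YWHAH), when YWHAB and YWHAQ were lower instead. Of the 4 subunit genes of calcineurin, the phosphatase that removes the SIK phosphates from CRTCs, PPP3CA and PPP3R1 were higher, at 0.62 and 0.47 (limma adjusted p = 0.0112 and 0.0314). Neither passed after the GC correction, at 0.29 and -0.02 (limma adjusted p = 0.106 and 0.929), while PPP3CB was then lower, at -0.63 (limma adjusted p = 0.00176). COP1, a ubiquitin ligase that acts on CRTC2, was at 0.16 (limma adjusted p = 0.362).

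The class IIa histone deacetylases are the other main substrates of the SIKs. Of their 4 genes 3 were lower and 0 higher, with a median of -0.57. HDAC7 fell from 6312, 6084 and 4751 normalized counts in Ctrl to 2713, 2705 and 2471 in NE-treated cells, which was -1.11 on the log2 scale (standard error 0.13, limma adjusted p = 0.000231). No NE library reached the Ctrl range. After the GC correction 2 of the 4 genes were lower and 1 higher. HDAC9 was then the lowest, at -0.97 (limma adjusted p = 0.00017), and HDAC7 was at -0.53 (limma adjusted p = 0.00128). HDAC5 no longer passed, at -0.11 (limma adjusted p = 0.462), and HDAC4 was higher, at 0.46 (limma adjusted p = 0.0410).

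Of the 5 genes for CREB-family factors and acetyltransferases that CRTCs work with, 4 were higher and 0 lower, with a median of 0.52. The largest was CREM, which encodes both activators and the cAMP-inducible repressor ICER. CREM had 236, 224 and 258 normalized counts in Ctrl and 2506, 2359 and 2351 in NE-treated cells, which was 3.33 on the log2 scale (limma adjusted p = 4.65e-07). CREBBP and EP300, the acetyltransferases, were at 0.52 and 0.46 (limma adjusted p = 0.0229 and 0.0330). They were also higher after the GC correction, at 0.87 and 0.43 (limma adjusted p = 0.000751 and 0.0452), as was CREM, at 2.92 (limma adjusted p = 3.47e-08). CREB1, the factor that CRTCs are named for, was at 0.54 (limma adjusted p = 0.0095) and turned to -0.15 after the correction (limma adjusted p = 0.454).

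Downstream, 18 genes known to respond to CREB and the CRTCs were listed, of which 15 were tested and NEDD9 was under the minimum mean. LINC00473 and INSL4 were not analysed here. Of the 15, 12 were higher and 0 lower, 11 of them by at least 1 on the log2 scale, where 7.47% of all tested genes were called higher, and the median was 2.88. After the GC correction 11 were higher and 0 lower, with a median of 2.56. This list was drawn up with earlier results of these data known, so its counts are a description and no independent test. CREM is counted here and also among the CREB-family factors above. The nuclear receptor genes NR4A2 and NR4A3 had the largest log2 fold changes of the list, 6.51 and 5.92, followed by CREM and by PDE4B, a cAMP phosphodiesterase gene, at 3.25 (limma adjusted p = 3.18e-05). The log2 fold changes of the SIK and CRTC genes themselves lay between -0.40 and 0.59, as the plot of all lists shows.

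**Figure D5:**
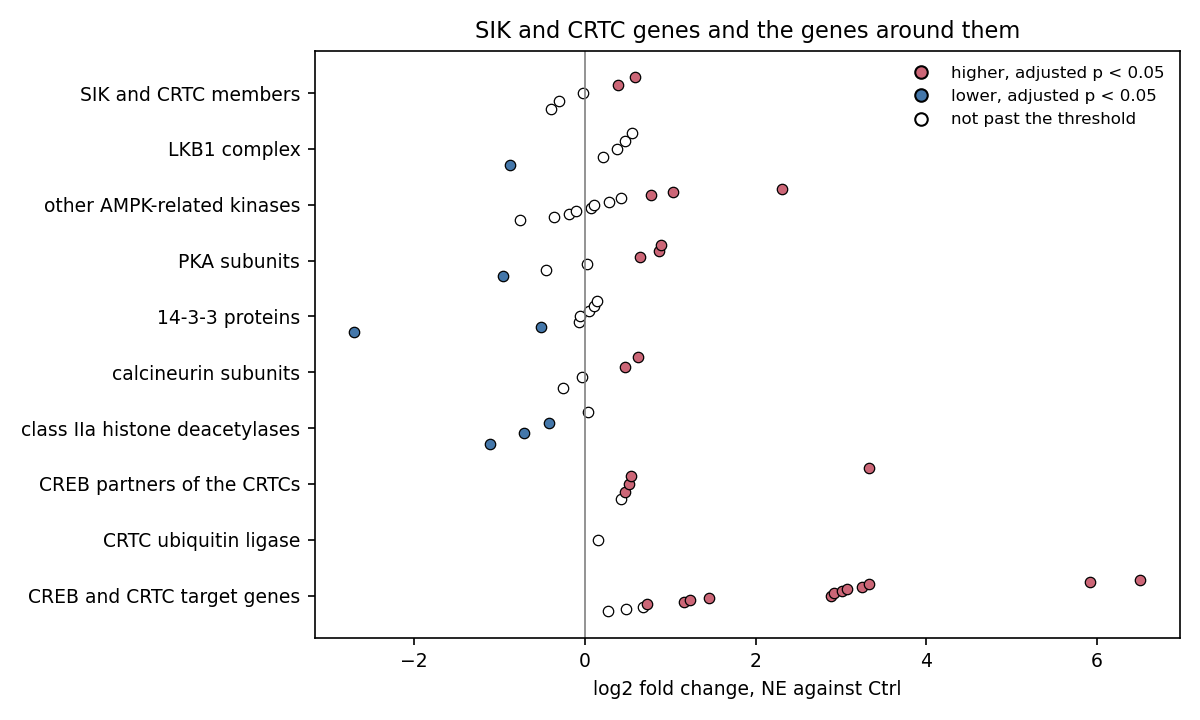
Log2 fold change of NE against Ctrl (horizontal axis) of each tested gene (points) in the SIK and CRTC group and in 9 lists of genes around it; filled points passed an adjusted p of 0.05 by limma, red for higher and blue for lower. The CREB and CRTC target genes reach 6.51, while the SIK and CRTC genes lie between -0.40 and 0.59.

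Genes with the most similar course over the 6 libraries were sought among 10683 others whose mean normalized count was 100 or more. For CRTC3 they were CELSR1, a cadherin of planar cell polarity, NXF2, an RNA export factor gene with a near-identical copy, and CNKSR3, with Pearson's r of 0.989, 0.987 and 0.981. Pearson's r does not compare the size of changes. The log2 fold change of NXF2 was -2.94, against -0.30 for CRTC3, while CELSR1 and CNKSR3 were at -0.24 and -0.22. For SIK3 and SIK2, chosen after their values were seen, the most similar genes were ZSWIM6 and LMTK2, with r of 0.998 and 0.997. The points are 6 libraries in 2 groups, and these values are given as a description.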

How the data were processed

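RNA-seq of NCI-H1299 cells was taken from 3 Ctrl and 3 NE libraries, grouped by the sample titles. The authors aligned reads to hg38 with HISAT2 2.0.5 and counted them per gene with featureCounts 1.5.0-p3; the annotation version is not given in the sources used here. Although FPKM is named in the methods, the deposited signal holds counts per gene over a single size factor for each library. In each library 1 read was worth 0.914 to 1.05, and 100% of values were whole multiples of that within 0.01 reads.

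Values were tested with limma 3.58.1 on log2(value + 1) with trend. The pseudocount of 1 understates folds of low genes, and 15013 genes passed the minimum mean of 10. Called genes had an adjusted p under 0.05 and a log2 fold change of 1 or more in size. Fold changes of members are judged by the adjusted p alone. Of 26025 IDs, 25813 matched a current symbol and GENCODE v44, whose merged exons gave length and GC content. FPKM was recomputed from the recovered reads. For the GC correction, a spline on exon GC content (5 degrees of freedom) was subtracted in each library. edgeR 4.0.16 and DESeq2 1.42.0 were run on the recovered reads. The SIK1 ratios of the design could not be computed.

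Named genes were all members, at most the 4 largest called genes of each list, or the 2 with the smallest adjusted p where none was called. List genes named beyond that rule (YWHAB, YWHAH, YWHAQ, PPP3CB, NUAK2, MARK4, HDAC4, HDAC5, HDAC9, CREB1, CREBBP, EP300) were chosen after their values were seen. The members and lists were chosen with earlier results of these data known. Alternatives were other pseudocounts, filters, scalings, limma settings and tools, a replicate block, the GC correction and each library left out.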

Additional observations from a re-analysis of the deposited data

How the results depend on the processing

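SIK3 passed the test in each alternative run, with the same direction. The cause of the changes below was not tested, and the depth of 332 reads or more per member was not varied. SIK2 stayed higher but did not pass without the trend of eBayes or with a replicate block, both at 0.39 (adjusted p = 0.0761 and 0.0684 from limma). Across the fits that left out 1 library SIK2 ran from 0.27 to 0.50 and passed in 2 of 6, CRTC1 from -0.33 to 0.16, CRTC2 from -0.59 to -0.28 and CRTC3 from -0.46 to -0.22. In these fits CRTC1 turned to 0.16 and 0.10 without Ctrl replicate 1 or 2 and to 0.04 when NE replicate 3 was left out. CRTC1 was at 0.11 with scaling to total reads, 0.61 with the GC correction, with or without the replicate block, and 0.43 with the GC correction without Ctrl replicate 3. CRTC2 was at 0.16, 0.16 and 0.0594 in those 3 GC-corrected fits, and at -0.41 by DESeq2. No member was called in any alternative with the fold criterion, and 2 passed without it. Called genes numbered 1121 higher and 983 lower. The GC correction gave 548 and 343, with the replicate block 474 and 317, and without Ctrl replicate 3 they were 650 and 523. Scaling to total reads turned the split to 1653 higher and 600 lower genes, and dropping the fold criterion 3693 and 3828. Leaving out 1 library gave 815 to 1628 higher and 777 to 1507 lower genes, the most without Ctrl replicate 3. With a replicate block alone 1049 and 924 were called. The deviations of same-numbered libraries correlated at -0.163, 0.08 and -0.151. They are taken from means of 3 libraries, with Ctrl replicate 3 apart, and cannot decide whether the libraries were paired.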
